A study of Homo sapiens with 8 samples.

Results

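Transcript levels of 8 plasma membrane amino acid transporter genes, *SLC1A4*, *SLC1A5*, *SLC3A2*, *SLC7A1*, *SLC7A5*, *SLC7A6*, *SLC38A1* and *SLC38A2*, were examined by RNA-seq of established lung adenocarcinoma cell lines. The genes were chosen by name and function, as the main carriers of neutral and cationic amino acids and the shared heavy chain subunit. Earlier results of these data were known at that choice, so comparisons of the 8 genes with all genes below are descriptions. The list makes up 8 of the 57815 gene identifiers in the data. The study asked which genes respond when the electrophile diethyl maleate (DEM), which inhibits KEAP1, transiently activates the transcription factor NRF2 in cells whose *KEAP1* and *NRF2* genes carry no mutation. The 4 groups were ABC1 cells with vehicle, ABC1 cells with 100 μM DEM, HCC4006 cells with vehicle and HCC4006 cells with 100 μM DEM, each treated for 16 h and each measured in 2 libraries, 8 libraries in all. Both lines carried intact *KEAP1* and *NRF2* and were grown in low-glucose DMEM with fetal bovine serum, the vehicle was DMSO, and each line stands for 1 tumour. Expression is given as FPKM, mapped fragments scaled to the transcript's length in kilobases and to the depth of the library, so that levels can be compared between genes per length.

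Amino acid transporters set which amino acids a cell can take up, exchange or release. SLC3A2 (CD98 heavy chain, 4F2hc) is a single-pass glycoprotein that carries no substrate itself but brings light chains such as SLC7A5 (LAT1), SLC7A6 (y+LAT2) and SLC7A11 (xCT) to the cell surface, where LAT1 imports leucine and other large neutral amino acids in exchange for intracellular glutamine, y+LAT2 exports arginine in exchange for glutamine and sodium, and xCT imports cystine in exchange for glutamate. SLC1A5 (ASCT2) exchanges glutamine and other neutral amino acids, SLC1A4 (ASCT1) exchanges alanine, serine and cysteine, SLC7A1 (CAT1) imports arginine and lysine, and SLC38A1 and SLC38A2 (SNAT1 and SNAT2) import glutamine and other small neutral amino acids together with sodium. In many cell types, ATF4, the transcription factor of the amino acid and integrated stress response, raises several of these transcripts when amino acids are scarce, and NRF2 is known for raising *SLC7A11*.

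The start regions of the 8 genes were searched for the letters of a C/EBP-ATF composite element (TGATGNAA) and of the core of an antioxidant response element (TGACNNNGC), the letters known to be bound by ATF4 with C/EBP partners and by NRF2 with small MAF proteins. The windows were those of RefSeq on GRCh38.p14, each of 300 bases from 250 before to 50 after a start site, and all 8 genes were matched, in 14 windows. On either strand, the composite letters were present in 5 of the 14 windows, in 5 of the 8 genes, and in 3.62% of all 35116 windows of the same length. The antioxidant response core was found in 5 of the 14 windows, also in 5 of the 8 genes, against 13.3% of all windows. The core letters overlap those of an AP-1 site, TGACTCA, and the *SLC3A2* match holds both. Each line below gives the match in capitals with 10 bases on each side, read along the strand of the gene, for the 4 genes with the largest log2 differences between DEM and vehicle in either line:
*SLC3A2*, antioxidant response core from -37 to -29 relative to the start site: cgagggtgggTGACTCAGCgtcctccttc
*SLC7A5*, antioxidant response core from -2 to 6: gcggggttccTGACGCAGCtgcgggcggc
*SLC1A4*, composite letters on the opposite strand from -7 to 0: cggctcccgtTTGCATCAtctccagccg
*SLC1A5*, composite letters from -97 to -90 of the most downstream of its 3 start sites: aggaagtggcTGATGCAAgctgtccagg
These stretches lie on GRCh38.p14 at chr11:62881652-62881680 on the plus strand, chr16:87869491-87869519 on the minus strand, chr2:64989382-64989409 on the plus strand and chr19:46784894-46784921 on the minus strand, in the order listed. *SLC7A1* held both kinds of letters (core from -85 to -77, composite from 7 to 14), as did *SLC3A2* with composite letters from 37 to 44 and *SLC1A5* with the core in the window of another start site, while *SLC7A6* held the core at 2 places and *SLC38A1* the composite letters from -4 to 3. No match of either kind was found in the window of *SLC38A2*. A match describes the letters and is not a measured binding site.

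Library sums of FPKM differed by at most 1.18-fold and 12515 to 13573 genes per library reached 1 FPKM. All 5 genes used to check the treatment (*NQO1*, *GCLM*, *TXNRD1*, *SRXN1* and *HMOX1*) were called higher with DEM in both lines, at a median log2 difference of 1.81 in the first line and 2.40 in the second. In ABC1 the call of *NQO1* was kept under 6 of 12 alternatives and those of *GCLM* and *TXNRD1* under 9 of 12, and without vehicle replicate 0 the adjusted p of these genes was 0.284, 0.194 and 0.201. Epithelial markers were abundant in both lines, but *NKX2-1* and *NAPSA*, markers of lung adenocarcinoma, were at most 0.763 and 0.646 FPKM in any ABC1 library. The summed FPKM of the 8 epithelial markers was lower with DEM than with vehicle, at 3667 to 4086 against 4975 to 5826 in ABC1 and 3500 to 3544 against 4451 to 4641 in HCC4006, with 3 keratins called lower in HCC4006. Keratins made up most of this sum. The mean FPKM of *EPCAM* was 395 with vehicle and 393 with DEM in ABC1, and 244 and 254 in HCC4006. For *CDH1* the means were 119 with vehicle and 119 with DEM in ABC1, and 156 and 141 in HCC4006. The part of the lower sum in the results below was not tested. Each library held 1 cell line, and in bulk RNA fewer cells with a marker and less marker RNA per cell cannot be told apart. The 5 matched markers of other cells summed to 3.70 to 9.29 FPKM per library, most of it *COL1A1* (3.58 to 7.64 FPKM), with *COL1A2* at 0 in ABC1 and at most 1.48 FPKM in HCC4006, and the immune markers *PTPRC* and *CD3E* stayed at or below 0.192 FPKM.

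Without DEM, *SLC38A2* had the highest FPKM of the 8 genes in both lines and *SLC1A4* the lowest. In vehicle-treated ABC1 cells the mean FPKM fell in the order *SLC38A2* (416), *SLC1A5* (202), *SLC7A5* (173), *SLC38A1* (141), *SLC3A2* (117), *SLC7A1* (39.4), *SLC7A6* (25.8) and *SLC1A4* (3.75). Of these neighbours, only *SLC1A5* and *SLC7A5* overlapped in the ranges of their libraries. In vehicle-treated HCC4006 cells the order was *SLC38A2* (167), *SLC3A2* (121), *SLC7A5* (94.3), *SLC1A5* (86.4), *SLC38A1* (75.6), *SLC7A1* (29.9), *SLC7A6* (29.1) and *SLC1A4* (20.8), with overlapping ranges only between *SLC7A1* and *SLC7A6*. With DEM, *SLC3A2* moved to the first place in HCC4006 cells at a mean of 241 FPKM, ahead of *SLC38A2* at 224, and from the fifth to the fourth place in ABC1 cells at 220 FPKM. Both libraries of *SLC3A2* lay above both of *SLC38A2* in HCC4006 cells with DEM.

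The first place of *SLC38A2* was not kept by a second measure of level, which differs from FPKM in how reads were counted and in the length used, effects that cannot be told apart here. The authors' mean of scaled counts, pooled over vehicle and DEM libraries of a line, was divided here by the length of the main transcript in GENCODE (MANE Select). By this value *SLC38A2*, with a transcript of 4795 bases, had 1790 counts per kilobase in ABC1, behind *SLC1A5* (3767) and *SLC7A5* (3069) and close to *SLC3A2* (1710). In HCC4006 cells *SLC7A5* came first with 2150 counts per kilobase, followed by *SLC3A2* (1689) and *SLC1A5* (1380), while *SLC38A2* (776) and *SLC38A1* (774) were nearly equal. One scaled count per kilobase corresponded to 0.244 and 0.252 FPKM for *SLC38A2* in ABC1 and HCC4006, and to between 0.0667 and 0.175 FPKM for the other 7 genes. The last place was held by *SLC1A4* in ABC1 (67.3) and by *SLC7A6* in HCC4006 (179) when counts per kilobase were used. The authors' means of scaled counts ranged from 307 for *SLC1A4* in ABC1 to 13981 for *SLC7A5* in ABC1, so no gene rested on a handful of reads.

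**Figure D1:**
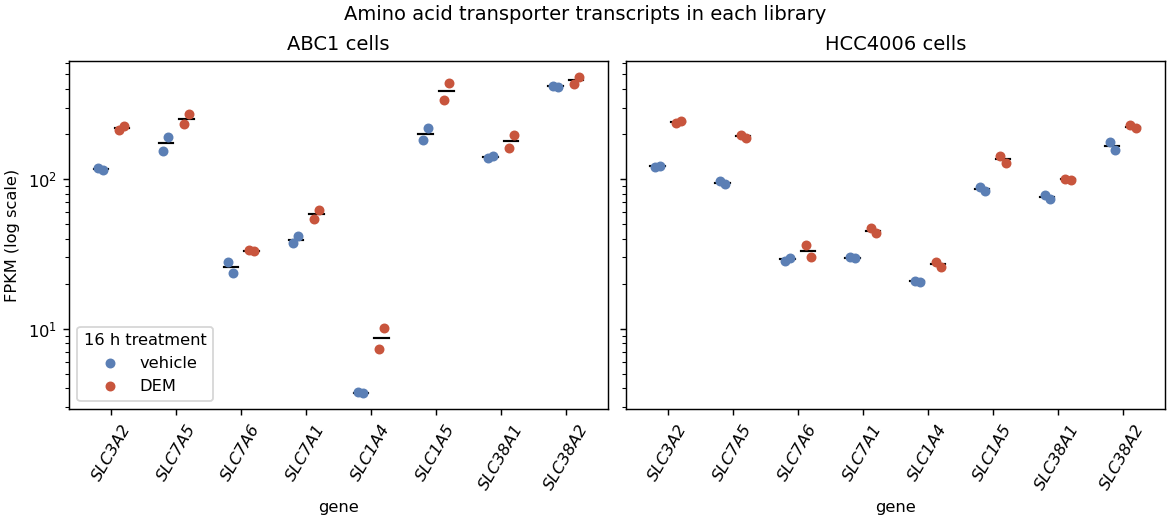
FPKM on a log scale of the 8 transporter genes in each ABC1 library (left) and HCC4006 library (right), with blue points for vehicle, red points for DEM and a bar at the mean of the 2 libraries. In both lines the DEM points of every gene lie above its vehicle points, and *SLC1A4* lies lower in vehicle-treated ABC1 cells (mean 3.75) than in vehicle-treated HCC4006 cells (mean 20.8).

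Levels were then compared between the untreated lines. By limma on log2(FPKM + 1) with Benjamini-Hochberg adjustment, 5 of the 8 were called higher and 1 lower in vehicle-treated ABC1 cells than in vehicle-treated HCC4006 cells, where 30.4% of all 13747 genes tested were called higher and 37.3% lower, so that a call was common among all genes and not particular to the transporters. *SLC38A2* had 421 and 411 FPKM in ABC1 and 176 and 157 in HCC4006, a log2 difference of 1.32 (standard error 0.10, adjusted p = 2.1e-04). *SLC1A5* had 183 and 220 FPKM in ABC1 and 88.8 and 83.9 in HCC4006, a log2 difference of 1.21 (standard error 0.12, adjusted p = 5.7e-04). The transcripts of the glutamine carriers SNAT2 and ASCT2 were thus 2.49-fold and 2.31-fold higher in ABC1 on the FPKM + 1 scale. *SLC38A1* and *SLC7A5* followed with log2 differences of 0.89 (adjusted p = 5.2e-04) and 0.86 (adjusted p = 0.00224), and the smallest called difference was that of the arginine carrier *SLC7A1* (0.38, adjusted p = 0.0181). *SLC1A4* went the other way, with 3.79 and 3.72 FPKM in ABC1 against 21.0 and 20.5 in HCC4006 and a log2 difference of -2.20 (standard error 0.10, adjusted p = 4.6e-05). The heavy chain *SLC3A2* was not called different (119 and 115 FPKM against 120 and 123, log2 difference -0.05, 95% confidence interval -0.27 to 0.16), nor was *SLC7A6* (28.0 and 23.6 against 28.4 and 29.8, log2 difference -0.17, 95% confidence interval -0.47 to 0.13). Without either HCC4006 vehicle library, 3 of the 8 were called higher and *SLC1A4* lower, and line and culture cannot be told apart in this comparison.

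Upon DEM treatment the amount of transporter transcript as a whole was larger in both lines. The 8 genes together made up 0.173% and 0.165% of all FPKM in the vehicle libraries of ABC1 and 0.235% and 0.234% in the DEM libraries. In HCC4006 cells the shares were 0.0916% and 0.0919% with vehicle and 0.147% and 0.146% with DEM. For each of the 8 genes in each line, both DEM libraries lay above both vehicle libraries, a separation seen for 25.5% of all 12635 genes tested in ABC1 and 29.3% of all 13542 in HCC4006. The median log2 difference of the 8 genes was 0.55 in ABC1 and 0.50 in HCC4006, beside medians over all genes tested of -0.02 and -0.03. By limma with Benjamini-Hochberg adjustment, 1 of the 8 was called higher in ABC1 cells, where 0.768% of all genes were called higher and 0.435% lower, and 7 of the 8 were called higher in HCC4006 cells, where 8.45% were called higher and 10.7% lower. None of the 8 genes was called lower in either line by limma, while 6 had an unadjusted p under 0.05 in ABC1 and 7 in HCC4006, each of them with a higher level with DEM. The smallest p that an exact permutation test (two-sided) allows in this design is 0.333, so that the p-values rest on the spread that limma shares across genes. Standard errors of the 8 genes were 0.12 to 0.19 in ABC1 and 0.06 to 0.11 in HCC4006. With scaling by *GAPDH* the median over all genes in ABC1 was -0.16 and the share of calls that were higher went from 63.8% to 33.2%, and in HCC4006 that share went from 44.2% to 58.7%.

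**Figure D2:**
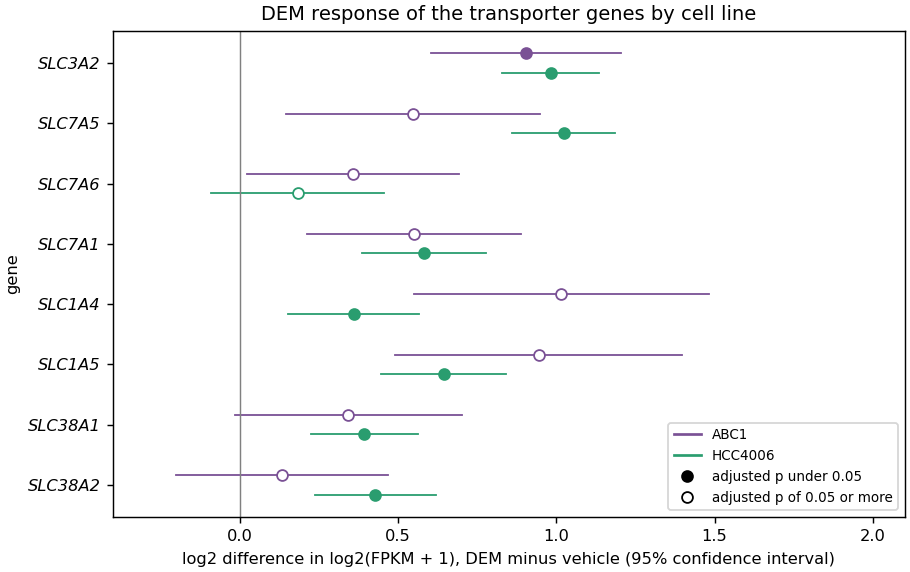
Difference in log2(FPKM + 1) between DEM and vehicle for the 8 transporter genes, with 95% confidence intervals from limma, in ABC1 (purple) and HCC4006 (green) cells; filled points have an adjusted p under 0.05. Every point lies above 0 (with scaling by *GAPDH*, *SLC38A2* in ABC1 is at -0.028), the intervals are wider in ABC1, and *SLC3A2* is the gene called in both lines.

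The heavy chain *SLC3A2* (ENSG00000168003.12, chr11:62623476-62656352 on GRCh37, plus strand) was the member called in both lines. It rose from 119 and 115 FPKM with vehicle to 214 and 225 with DEM in ABC1, and from 120 and 123 to 236 and 246 in HCC4006. The replicates were close to each other and the groups were far apart in both lines. The log2 difference was 0.90 in ABC1 (standard error 0.12, adjusted p = 0.0431) and 0.98 in HCC4006 (standard error 0.06, adjusted p = 0.00118). In ABC1 the call was lost without any one of the 4 libraries, with an adjusted p of up to 0.318, although the log2 difference then lay between 0.87 and 0.94. With scaling by *GAPDH*, the gene called in ABC1 was *SLC1A5* (log2 difference 0.78, adjusted p = 0.0293) and no longer *SLC3A2* (0.74, adjusted p = 0.0630).

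*SLC7A5* (ENSG00000103257.4, chr16:87863629-87903113 on GRCh37, minus strand), which encodes the light chain LAT1, had 155 and 191 FPKM with vehicle and 233 and 272 with DEM in ABC1. In HCC4006 cells it had 96.4 and 92.2 FPKM with vehicle and 197 and 188 with DEM. It was called in HCC4006 (log2 difference 1.02, standard error 0.07, adjusted p = 0.00126), the largest difference among the 8 genes in that line, and not in ABC1 (0.55, standard error 0.16, adjusted p = 0.143). Its range in HCC4006 cells with DEM overlapped that in ABC1 cells with vehicle. The other LAT-type light chain, *SLC7A6* (ENSG00000103064.9, chr16:68298419-68335726, plus strand), was called in neither line. It had 28.0 and 23.6 FPKM with vehicle and 33.5 and 33.1 with DEM in ABC1 (log2 difference 0.36, 95% confidence interval 0.02 to 0.69, adjusted p = 0.204). In HCC4006 cells the values were 28.4 and 29.8 against 36.6 and 30.0 (log2 difference 0.18, 95% confidence interval -0.09 to 0.46, adjusted p = 0.286), where the lower DEM library exceeded the higher vehicle library only slightly. *SLC7A6* shares 17321 of its 37308 bases with *SLC7A6OS* on the opposite strand. The library kit keeps strand, but whether strand was used in counting is not given in the sources used here, so it is not known whether reads of the 2 genes were told apart.

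*SLC7A11*, the cystine light chain that also pairs with SLC3A2, was not one of the 8 genes but gave the largest change among the partners of the heavy chain. It rose from 7.97 and 7.82 to 51.2 and 51.1 FPKM in ABC1 (log2 difference 2.55, adjusted p = 0.00428) and from 6.02 and 6.33 to 48.1 and 47.1 FPKM in HCC4006 (2.76, adjusted p = 1.3e-04). Its share of the summed FPKM of the 6 light chains *SLC7A5*, *SLC7A6*, *SLC7A7*, *SLC7A8*, *SLC7A10* and *SLC7A11* went from 4.14% and 3.51% to 16.1% and 14.3% in ABC1, and from 4.56% and 4.88% to 17.0% and 17.7% in HCC4006. *SLC7A5* made up most of the sum in every library, from 69.7% to 85.5%, while *SLC7A7*, *SLC7A8* and *SLC7A10* together reached at most 1.32 FPKM. The FPKM of *SLC3A2* divided by that sum was 0.618 and 0.515 with vehicle and 0.672 and 0.631 with DEM in ABC1. In HCC4006 cells it was 0.911 and 0.946 with vehicle and 0.832 and 0.923 with DEM. This ratio was higher in all 4 HCC4006 libraries than in any ABC1 library, and its vehicle and DEM ranges overlapped in HCC4006 and not in ABC1. Such ratios and shares compare FPKM between genes and depend on the measure of level. Over the 4 HCC4006 libraries, *SLC3A2* exceeded *SLC7A5* by mean FPKM (181 against 143) but not by counts per kilobase (1689 against 2150).

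**Figure D3:**
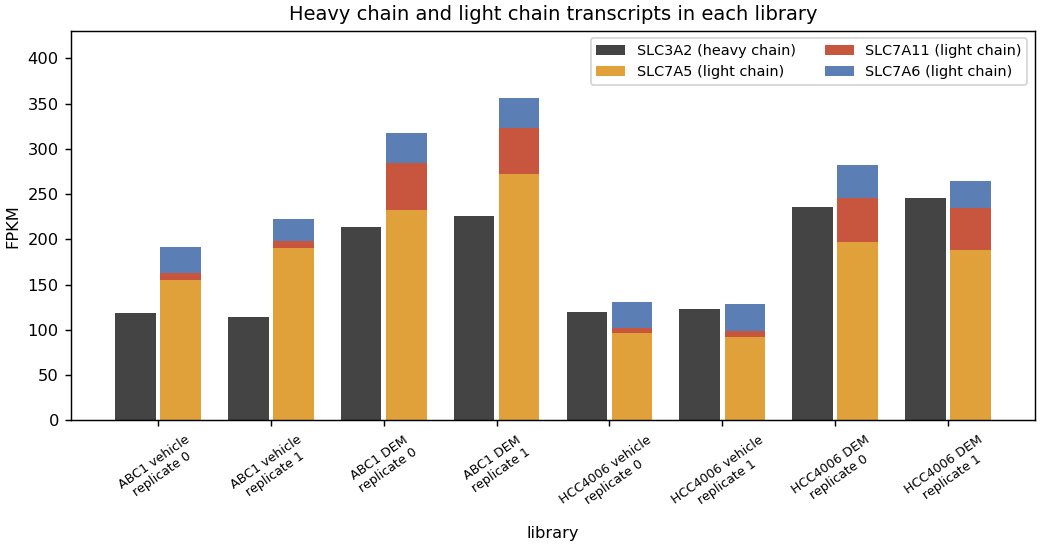
FPKM in each of the 8 libraries of the heavy chain *SLC3A2* (grey bars) beside the stacked light chains *SLC7A5* (orange), *SLC7A11* (red) and *SLC7A6* (blue). The grey bars go from 115 to 123 with vehicle to 214 to 246 with DEM, and the red segment grows from at most 7.97 to at least 47.1 FPKM.

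Among the carriers of glutamine and small neutral amino acids, *SLC1A5* (ENSG00000105281.8, chr19:47278140-47291851 on GRCh37, minus strand) had 183 and 220 FPKM with vehicle and 339 and 442 with DEM in ABC1. The groups did not overlap, but the libraries within each group differed, with replicate 1 above replicate 0 in both. The log2 difference of 0.94 (standard error 0.18) had an adjusted p of 0.0723 by limma. With a term for replicate number in the limma model, a pairing not taken as given here, the adjusted p was 0.00152. In HCC4006 cells *SLC1A5* rose from 88.8 and 83.9 to 143 and 128 FPKM (log2 difference 0.64, standard error 0.08, adjusted p = 0.00703). Its paralog *SLC1A4* (ENSG00000115902.6, chr2:65215611-65250999, plus strand) had 3.79 and 3.72 FPKM with vehicle and 7.28 and 10.1 with DEM in ABC1 (log2 difference 1.02, standard error 0.19, adjusted p = 0.0696), the largest estimate of the 8 genes in that line and the one resting on the lowest level. In HCC4006 cells, *SLC1A4* rose from 21.0 and 20.5 to 27.8 and 26.1 FPKM (log2 difference 0.36, standard error 0.08, adjusted p = 0.0361), a call that was lost without any one of the 4 libraries (adjusted p 0.0769 to 0.162).

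The sodium-coupled carriers showed small differences. *SLC38A1* (ENSG00000111371.11, chr12:46576846-46663800, minus strand) had 139 and 143 FPKM with vehicle and 162 and 198 with DEM in ABC1 (log2 difference 0.34, adjusted p = 0.244), and rose from 77.8 and 73.3 to 101 and 98.3 in HCC4006 (0.39, standard error 0.07, adjusted p = 0.0171). *SLC38A2* (ENSG00000134294.9, chr12:46751971-46766556, minus strand) had 421 and 411 FPKM with vehicle and 433 and 481 with DEM in ABC1, the smallest difference of the 8 (0.13, 95% confidence interval -0.20 to 0.47, adjusted p = 0.606). This value turned to -0.028 with scaling by *GAPDH*, beside the median of -0.16 over all genes. In HCC4006 cells *SLC38A2* rose from 176 and 157 to 229 and 219 FPKM (0.43, standard error 0.08, adjusted p = 0.0187). Leaving out 1 library of HCC4006 ended the call of *SLC38A1* in each of the 4 cases and that of *SLC38A2* in 3 of them. The cationic carrier *SLC7A1* (ENSG00000139514.8, chr13:30083551-30169825, minus strand) had 37.3 and 41.6 FPKM with vehicle and 54.1 and 62.4 with DEM in ABC1 (0.55, standard error 0.14, adjusted p = 0.107). In HCC4006 cells it rose from 30.2 and 29.7 to 47.1 and 43.6 FPKM (0.58, standard error 0.08, adjusted p = 0.00859), nearly the same estimate as in ABC1. The call in HCC4006 was lost without vehicle replicate 1 (adjusted p = 0.0562).

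Whether the lines differed in their response was tested as the HCC4006 response minus the ABC1 response in a limma model of all 8 libraries. None of the 8 genes was called, against 0.636% of all genes in either direction, and 2 of the 8 had an unadjusted p under 0.05. The response of *SLC1A4* was smaller in HCC4006 by a log2 difference of -0.66 (95% confidence interval -1.14 to -0.18, adjusted p = 0.202). That of *SLC7A5* was larger in HCC4006 (0.48, 95% confidence interval 0.06 to 0.89, adjusted p = 0.267). For *SLC3A2* the difference was 0.08 (95% confidence interval -0.20 to 0.35), for *SLC7A1* 0.03 (-0.32 to 0.39) and for *SLC38A1* 0.05 (-0.31 to 0.41). The intervals of *SLC1A5* (-0.80 to 0.20), *SLC38A2* (-0.04 to 0.62) and *SLC7A6* (-0.59 to 0.24) also spanned both signs. Thus the count of 7 called genes in HCC4006 against 1 in ABC1 does not show that the responses differed. With the spread shared over all 8 libraries, 5 of the 8 were called in each line. That model called 779 of 12635 genes higher and 788 lower in ABC1, and 795 of 13542 higher and 990 lower in HCC4006.

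The DEM pattern of the other 7 genes was compared with that of *SLC3A2* over the 8 libraries, as Pearson's r of log2(FPKM + 1) centred on the mean of each line. Since the libraries share treatment and line, r is given as a description. *SLC7A1* was the most alike of the members (r = 0.970), followed by *SLC7A5* (0.940), *SLC38A1* (0.934), *SLC1A5* (0.930), *SLC1A4* (0.857), *SLC38A2* (0.849) and *SLC7A6* (0.781). By rank of r among the 13681 other genes, *SLC7A1* was at place 126, *SLC7A5* at 360 and *SLC7A6*, last of the members, at 1705. A high r was thus not particular to the transporters. Of 13681 other genes, those with the highest r were *SLC7A11* (0.998), *BLVRB* (0.996), *PI4K2A* (0.996), *ERRFI1* (0.996) and *HMOX1* (0.994). *HMOX1* encodes heme oxygenase and *BLVRB* biliverdin reductase B, enzymes of heme breakdown.

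Among other plasma membrane amino acid transporters, a few were called in HCC4006 and none in ABC1, where calls were also rarer among all genes. Of all genes tested, 0.768% were called higher and 0.435% lower in ABC1, and 8.45% higher and 10.7% lower in HCC4006. Of 23 such genes, 22 were matched and 12 stayed below 1 FPKM in every library. In ABC1, 7 passed the minimum of 1 FPKM and 0 were called by limma, while 5 had an unadjusted p under 0.05, 3 of them with a lower level with DEM. The median log2 difference of the 7 was -0.20. In HCC4006, 6 passed and 3 were called higher. *SLC6A6*, which encodes the taurine transporter, rose from 9.52 and 9.43 to 25.0 and 24.5 FPKM in HCC4006 (log2 difference 1.30, adjusted p = 0.00146), while in ABC1 it had 3.79 and 4.21 FPKM with vehicle and 3.20 and 3.53 with DEM. *SLC6A9*, which encodes the glycine transporter GlyT1, rose from 6.11 and 5.45 to 16.7 and 12.9 FPKM in HCC4006 (1.21, adjusted p = 0.00634) and had 33.4 and 33.9 against 52.8 and 52.4 FPKM in ABC1 (0.63, adjusted p = 0.0671). *SLC36A4* was the last of the 3, with a log2 difference of 0.45 (adjusted p = 0.0336), a call that was lost without any one of the HCC4006 libraries (adjusted p up to 0.155). Of the 6 lysosomal amino acid transporters and sensor genes, all tested by limma, 0 were called in ABC1 (1 with an unadjusted p under 0.05) and 2 were called higher in HCC4006. These were *SLC36A1* (log2 difference 0.87, adjusted p = 0.00507), a proton-coupled carrier of small amino acids, and *SLC66A1* (0.67, adjusted p = 0.0139), a lysosomal carrier of cationic amino acids, which was called under 8 of 12 alternatives (adjusted p up to 0.0993).

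Genes of the amino acid and integrated stress response were called higher more often than lower. In ABC1, 7 of the 20 tested were called higher and 0 lower by limma (0 lower also at an unadjusted p under 0.05), and their median log2 difference was 0.86. In HCC4006, 13 of 21 were called higher and 1 lower, *ALDH18A1*, and the median was 0.58. Of all genes tested, 0.768% were called higher and 0.435% lower in ABC1, and 8.45% higher and 10.7% lower in HCC4006. By limma, 0 of the 21 were called in the test of the difference between the lines. *ALDH18A1*, which encodes an enzyme of proline synthesis, was named because it was the one gene called lower. *ATF4* had 249 and 292 FPKM with vehicle and 365 and 430 with DEM in ABC1 (log2 difference 0.55, adjusted p = 0.132), and rose from 188 and 202 to 339 and 322 in HCC4006 (0.76, adjusted p = 0.00285). Its targets *DDIT3* and *TRIB3*, which encode the transcription factor CHOP and a pseudokinase, were called in both lines. *DDIT3* rose from 16.7 and 17.1 to 53.0 and 39.9 FPKM in ABC1 (1.40, adjusted p = 0.0365) and from 19.4 and 21.1 to 48.4 and 49.6 in HCC4006 (1.24, adjusted p = 0.00136). *TRIB3* rose from 18.8 and 16.4 to 37.6 and 33.6 FPKM in ABC1 (0.98, adjusted p = 0.0443) and from 84.3 and 82.0 to 171 and 175 in HCC4006 (1.05, adjusted p = 9.8e-04). *ATF3* rose in HCC4006 (1.33, adjusted p = 0.00163) and had a log2 difference of 1.02 in ABC1 (adjusted p = 0.0614). Without any one of the ABC1 libraries, 0 to 2 genes of this list were called higher in that line.

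**Figure D4:**
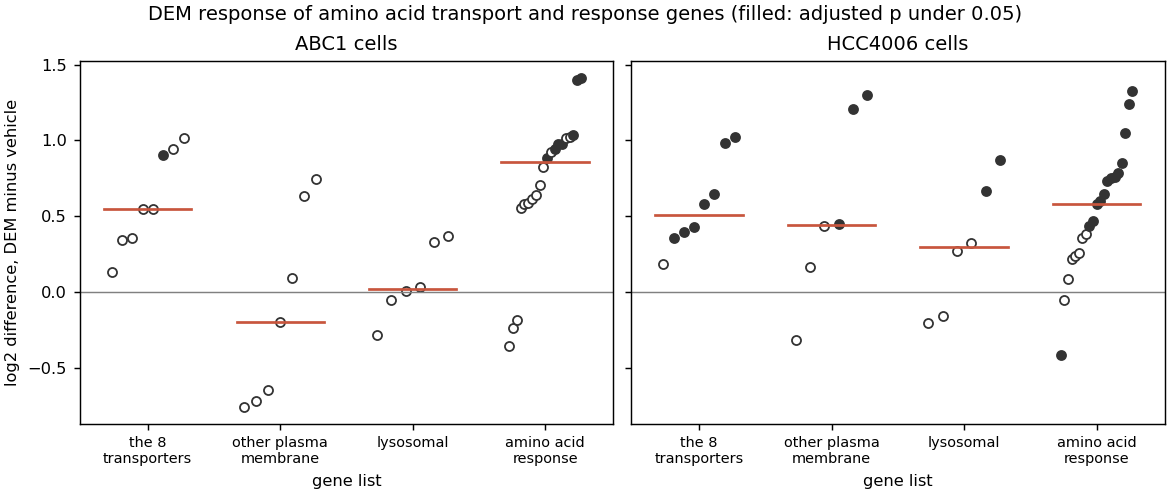
Difference in log2(FPKM + 1) between DEM and vehicle of each tested gene of 4 lists in ABC1 (left) and HCC4006 (right), with a red line at the median of each list and filled points for an adjusted p under 0.05. The 8 transporters and the amino acid response genes have medians of 0.50 to 0.86 in both lines, and for the other plasma membrane transporters the median is -0.20 in the left panel and 0.44 in the right.

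Near-identical copies, between which reads could be split, were looked for among the 8 genes. The proteins of *SLC1A4* and *SLC1A5* were 58.0% identical over their alignment, those of *SLC38A1* and *SLC38A2* 50.1%, and those of *SLC7A5* and *SLC7A6* 46.0%. The longest run of identical bases between their coding sequences was 20, 14 and 16 bases in this order, shorter than a read. Untranslated regions, pseudogenes and the rest of the genome were not searched, so copies there could not be seen. *SLC1A4* lies wholly within the annotated span of *LINC02245* on the opposite strand.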

How the data were processed

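RNA was polyA-selected, prepared with a strand-specific kit and sequenced from 2 libraries each of ABC1 and HCC4006 cells with vehicle or DEM, which the study describes as biological replicates. The authors deposited FPKM values per gene for each library, estimated against hg19. The paper names TopHat and Cufflinks, while the submitters' processing notes list bcl2fastq 2.15.0, cutadapt 1.15, STAR 2.5.3a, HTSeq, Cuffnorm and DESeq2 without roles, so the aligner is uncertain. For each line the deposited files further hold the authors' comparison of DEM with vehicle, from which the base mean, a signal averaged over scaled counts, was taken as the authors' mean. The fold changes and p-values in it were not used. Samples were grouped by their titles. FPKM depends on the transcript lengths assumed, and read totals per library were not used here, so no counting interval is given.

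Here, log2 values of the deposited FPKM plus a pseudocount of 1 were tested with limma 3.58.1 in R 4.3.3 (1 mean per group, mean-variance trend, Benjamini-Hochberg adjustment). Genes averaging 1 FPKM or more over the libraries compared were tested, and calls were made below an adjusted p of 0.05. A log2 difference on this scale understates the change of low genes. The fit was also run on simulated data, with an outcome not reported here. For the difference between the lines, the simulated spread was the same for all genes and both lines, unlike the data. The 8 members, SLC7A11 and the treatment check genes were always named, of each other list the called genes with the smallest adjusted p, at most 4, and the 5 genes most like SLC3A2. The members and lists were chosen with earlier results of these data known. Gene positions are GENCODE's on GRCh37. SLC6A14 and PECAM1 were not matched. Alternatives were another pseudocount, other minimum levels, other scalings, no trend, all 8 libraries in 1 model, a replicate block and leaving out each library.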

Additional observations from a re-analysis of the deposited data

Results flagged for a closer look

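*SLC6A6*, the taurine transporter gene, drew attention because its response to DEM differed between the lines by a test of the difference itself. The response in HCC4006 exceeded that in ABC1 by 1.49 on the log2 scale (95% confidence interval 1.15 to 1.84, adjusted p = 0.0172 by limma). In ABC1 both DEM libraries lay below both vehicle libraries, but *SLC6A6* was not called lower there. Its ABC1 estimate was -0.20 (95% confidence interval -0.60 to 0.21, adjusted p = 0.530 by limma). It was higher with DEM in both HCC4006 libraries. The difference lay between 1.48 and 1.51 without any one of the HCC4006 libraries, with an adjusted p of 0.0941 to 0.122.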

How the results depend on the processing

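Counts of called genes moved with the setting, and their causes were not tested. In ABC1, 1 of the 8 transporters, 97 genes higher and 55 lower were called. The 8 transporters gave 0 calls without a minimum FPKM (0 higher and 0 lower of all genes, 3883 with an unadjusted p under 0.05) and 0 without the variance trend (27 higher, 6 lower), 2 with median-of-ratios scaling (158 higher, 93 lower) and 5 in a model of all 8 libraries (779 higher, 788 lower). Genes called lower numbered 94 at a minimum of 5 FPKM and 161 with *GAPDH* scaling. Leaving out 1 ABC1 library gave 0 calls among the 8, with 10 to 51 genes higher and 8 to 18 lower. In HCC4006, the 7 calls became 2 without a minimum (177 genes higher, 193 lower), 4 without the trend, 5 in a model of all 8 libraries (795 higher, 990 lower) and 3 to 5 without 1 library (290 to 464 higher, 344 to 564 lower). Without the trend, 817 of all genes were called higher and 998 lower in HCC4006. *SLC3A2* and *SLC7A5* were called in HCC4006 under all 12 alternatives and *SLC7A6* under none. Between the lines, 42 genes differed upward and 45 downward, none of them among the 8 under any alternative. These counts were 11 and 9 at a pseudocount of 0.1, 173 and 230 without a minimum, 10 and 9 with *GAPDH* scaling, and 0 to 17 and 2 to 27 without 1 library. *GAPDH* scaling, which moved the median over all genes in this comparison to 0.18, turned the difference of *SLC7A6* to 0.043, and in ABC1 it turned *SLC38A2* to -0.028 and *SLC36A4* to -0.058. Without 1 library, the difference between lines ranged from -0.069 to 0.13 for *SLC7A1* and from -0.092 to 0.19 for *SLC38A1*. Between vehicle groups, 5 of the 8 were higher and 3 without either HCC4006 library (all genes, without 1 library of either line, 2517 to 4028 higher and 3055 to 5356 lower).

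The replicate numbers 0 and 1 are shared between vehicle and DEM, but with 2 pairs per line (correlation of same-numbered deviations 0.258 in ABC1 and 0.0544 in HCC4006) they were not taken to pair the libraries. A replicate block gave 6 of the 8 transporters in ABC1 (1185 genes higher, 1163 lower) and 7 in HCC4006 (1457 genes higher, 1847 lower). Between the lines it gave 0 of the 8 (5 genes upward, 8 downward) and ended the call of *SLC6A6* (adjusted p = 0.0542 by limma). Precision was limited by 2 libraries per group.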
